A study of Homo sapiens with 6 samples.

Results

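The genes described here are 35 genes of the endoplasmic reticulum (ER) chaperones and the unfolded protein response, found by symbol among the 60325 gene rows of the deposited tables. All 35 had a value in all 6 libraries, as did 17388 genes in total, and all 35 were among the 13508 genes that entered the tests. By role they comprised 15 chaperones and folding enzymes, 6 genes of ER-associated degradation, 4 genes of oxidative folding, 5 genes of protein translocation, and 5 sensors and transcription factors. RNA was sequenced from cells of THP-1, a human line established from a monocytic leukaemia, cultured as a control (ctrl) or with human recombinant interleukin-6 (IL-6), and collected at 6, 24 and 48 h. Every combination of agent and time had 1 library and none was repeated, and the labels give neither the dose of IL-6 nor what the control cultures received. The study asked which expression changes IL-6 drives in these cells, which stand in for monocytes and come from 1 leukaemia line.

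The ER folds and modifies secreted and membrane proteins. HSPA5, also called BiP, binds unfolded chains and also holds the stress sensors of the ER membrane inactive. When unfolded protein accumulates, ATF6 is cleaved to release a transcription factor, the kinase and nuclease IRE1, encoded by ERN1, splices XBP1 mRNA, and the kinase PERK, encoded by EIF2AK3, slows translation and favours synthesis of ATF4. ATF6 and spliced XBP1 are known to bind the ER stress response elements of chaperone promoters, and XBP1 is known to drive many genes that return misfolded proteins to the cytosol for degradation. The deposited values are per gene, so spliced and unspliced XBP1 could not be told apart here.

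Every gene of the 35 that passed the threshold did so for culture time. At 48 h against 6 h, 6 of the 15 chaperones and folding enzymes fell, between 1.70-fold and 2.04-fold. The degradation genes HERPUD1 and EDEM1 and the transcription factor gene XBP1 rose, by 2.14-fold, 1.67-fold and 1.64-fold. Of all genes tested, 1.48% were called lower and 2.54% higher in this comparison. None of the 35 genes passed the threshold for IL-6 against control over the 3 time-matched pairs. Only 0.281% of all genes tested did, so a count of 0 does not set these genes apart.

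The promoters of the genes are shown first, because the known elements for ATF6 and XBP1 occurred both in genes that fell and in genes that rose. RefSeq promoters, from 250 bases before to 50 after a gene's start site on GRCh38.p14, were available for 32 of the 35 genes. PDIA3, DERL1 and SPCS1 had no entry. The ER stress response element (ERSE) was searched on both strands as CCAAT, 9 bases of any kind and CCACG. It was found in 9 of the 32 genes (28.1%), against 25 of the 27305 genes of the RefSeq table (0.0916%). By role these were 6 of 14 chaperones and folding enzymes, 0 of 5 degradation genes and 1 of 4 oxidative folding genes. They further comprised 1 of 4 translocation genes and 1 of 5 sensors and transcription factors. The genes were chosen as members of the response that these elements serve. Their higher share, here and for the elements below, is thus description and not a finding. In the following stretches, which run 5′ to 3′ on the strand that reads CCAAT first, capitals mark both parts of the element.
HSPA5, chr9:125241386-125241414, minus strand: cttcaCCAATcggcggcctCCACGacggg
HSP90B1, chr12:103930211-103930239, plus strand: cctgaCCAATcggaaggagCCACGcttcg
HSP90B1, chr12:103930316-103930344, minus strand: acccaCCAATcgcgccgcaCCACGcaccc
CALR, chr19:12938379-12938407, minus strand: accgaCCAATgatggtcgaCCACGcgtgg
CRELD2, chr22:49918549-49918577, minus strand: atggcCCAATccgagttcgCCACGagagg
CANX, chr5:179698773-179698801, plus strand: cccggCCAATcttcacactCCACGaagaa
PDIA6, chr2:10812848-10812876, minus strand: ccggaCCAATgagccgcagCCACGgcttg
XBP1, chr22:28800598-28800626, minus strand: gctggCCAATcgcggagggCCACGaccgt

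The remaining matches lay in ERO1B and SERP1. Counted from the start site (position 0), the element began at -66 in HSPA5 and at -52 in XBP1, while HSP90B1 held a pair that began at -194 and -89. A shorter form, ERSE-II, was searched as ATTGG, any single base and CCACG, on both strands. It was present in HERPUD1, SDF2L1 and HYOU1, that is 9.38% of the 32 genes and 0.0696% of all genes in the table. These are shown because HERPUD1 rose and SDF2L1 fell from 6 to 48 h, and both hold the element.
HERPUD1, chr16:56932020-56932040, plus strand: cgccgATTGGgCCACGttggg
SDF2L1, chr22:21642109-21642129, minus strand: ttttgATTGGtCCACGcttcc
HYOU1, chr11:119057269-119057289, plus strand: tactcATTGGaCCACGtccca
HYOU1, chr11:119057375-119057395, plus strand: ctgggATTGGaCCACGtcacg

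The XBP1 element UPRE, searched as TGACGTGG on both strands, matched in HYOU1, TXNDC5 and TXNDC11 (9.38% of the 32 genes and 0.927% of all genes in the table), and in HYOU1 it overlapped the ERSE-II match farther from the start site. By GENCODE v29, 8 of the 14 ERSE and ERSE-II stretches lay outside any annotated gene and 4 overlapped an exon, namely the pair of HSP90B1, of which the one farther from the start site also overlapped an exon of TTC41P, and those of CANX and SERP1. The parts taken singly were common: CCACG alone occurred in 78.1% of the 32 genes and 42.1% of all genes in the table, and CCAAT alone in 84.4% and 39.7%. Below are the first 150 bases of the searched windows of HERPUD1 and SDF2L1, farthest from the start site, with the ERSE-II match in capitals, on the strand of the gene.
HERPUD1, chr16:56931892-56932041, plus strand: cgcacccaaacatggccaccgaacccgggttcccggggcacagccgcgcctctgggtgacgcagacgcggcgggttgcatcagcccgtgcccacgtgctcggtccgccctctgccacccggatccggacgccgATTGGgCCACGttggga
SDF2L1, chr22:21642052-21642201, plus strand: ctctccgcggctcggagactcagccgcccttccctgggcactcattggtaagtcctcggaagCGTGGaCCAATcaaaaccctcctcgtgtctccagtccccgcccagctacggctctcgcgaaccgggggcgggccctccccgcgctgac

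**Figure D1:**
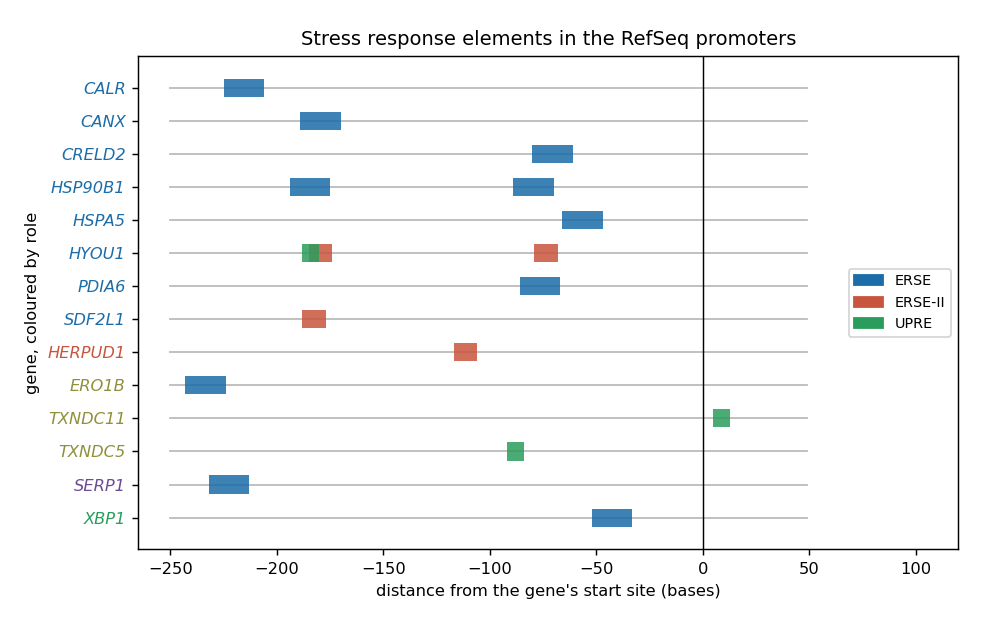
Position of each match to ERSE, ERSE-II or UPRE on a horizontal axis of bases from the start site (0), with 1 line per gene over the searched window and gene names coloured by role. Matches in HSPA5 and XBP1 lie close to the start site, and HSP90B1 and HYOU1 have more than 1 match.

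Values are log2 values that the authors centred on each gene, so 0 is a gene's mean over the 6 libraries. A difference of 1 is a 2-fold difference, and the values as they stand cannot compare levels between genes. Differences over time were estimated with limma from 1 control and 1 IL-6 library per time point, and were called at a Benjamini-Hochberg adjusted p under 0.05 over all 13508 genes. No condition was repeated, and nothing in the labels says that the libraries came from separate cultures. Each p-value thus reflects only scatter among the 6 libraries, which may be technical. That scatter is what additive terms for time and agent leave over, so it includes any change of the IL-6 effect with time. For each gene it was combined with that of other genes (2 residual and a median of 8.11 prior degrees of freedom). Among all genes tested, 200 (1.48%) were called lower and 343 (2.54%) higher at 48 h than at 6 h. Of the 35 genes, 6 were called lower and 3 higher. In bulk RNA a change in the share of cells and a change per cell cannot be told apart. The median difference was -0.090 over the 35 genes and 0.071 over all genes tested.

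Among the chaperones, HSP90B1, the ER member of the HSP90 family (also called GRP94), stood at 0.29, 0.22 and -0.45 in the control libraries of 6, 24 and 48 h. With IL-6 it stood at 0.28, 0.21 and -0.55. Both 48 h libraries were thus far below the other 4, which lay close together. The difference of 48 h from 6 h was -0.78 ± 0.13 (SE) on the log2 scale (limma, adjusted p = 0.0106). Against 24 h it was -0.71 ± 0.13 (limma, adjusted p = 0.0406), and HSP90B1 was the only one of the 35 genes called between 24 and 48 h, where 0.422% of all genes were called lower.

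CALR encodes calreticulin, a calcium-binding lectin chaperone of glycoproteins. In control cultures it stood at 0.28, 0.29 and -0.51 at 6, 24 and 48 h. The values with IL-6 were 0.34, 0.021 and -0.43. The 48 h libraries were the lowest in both cultures, and the fall came to -0.79 ± 0.14 against 6 h (limma, adjusted p = 0.0158).

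CRELD2, an ER-stress-inducible secreted factor with disulfide isomerase-like motifs, went from 0.58 at 6 h to -0.036 at 24 h and -0.51 at 48 h in control cultures. The same gene went from 0.47 to -0.020 and -0.49 with IL-6. It was the largest fall among the 35 genes, at -1.03 ± 0.13 against 6 h (limma, adjusted p = 0.00329), and its cultures with and without IL-6 almost coincided.

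SDF2L1 encodes a partner of BiP's co-chaperones that limits aggregation. Its control values were 0.50, -0.20 and -0.31 at 6, 24 and 48 h. Its IL-6 values were 0.62, -0.025 and -0.58. Most of the fall was already present at 24 h: the difference from 6 h was -0.68 ± 0.15 at 24 h (limma, adjusted p = 0.0484) and -1.01 ± 0.15 at 48 h (limma, adjusted p = 0.00695). No other member of the 35 was called at 24 h against 6 h, where 0.304% of all genes were called lower.

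MANF, a secreted neurotrophic factor that is retained in the ER by BiP, stood at 0.50, -0.31 and -0.34 in the control libraries. With IL-6 the 24 h library was intermediate, and the values were 0.57, 0.095 and -0.52. Against 6 h the 48 h difference was -0.97 ± 0.16 (limma, adjusted p = 0.0106). DNAJB11, a co-chaperone that stimulates BiP's ATPase, had control values of 0.34, -0.23 and -0.39. With IL-6 it had 0.44, 0.20 and -0.35. As with MANF, the control library was already low at 24 h and the IL-6 library was not. DNAJB11 fell by 0.76 ± 0.14 on the log2 scale from 6 to 48 h (limma, adjusted p = 0.018).

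HSPA5 itself had smaller differences. It stood at 0.18, 0.035 and -0.27 in control cultures and at 0.15, -0.094 and -0.0088 with IL-6. The 48 h difference from 6 h was -0.31 ± 0.14 (limma, adjusted p = 0.247). CANX, calnexin, the membrane-bound partner of calreticulin, had values of 0.011, 0.39 and -0.30 in control cultures and of -0.086, 0.075 and -0.092 with IL-6. Its high control library at 24 h has no counterpart with IL-6, and its 48 h difference from 6 h was -0.16 ± 0.15 (limma, adjusted p = 0.58).

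Of the 7 other chaperones and folding enzymes, 5 had negative differences between 48 h and 6 h and 2 positive ones, and none was called. PDIA4, a disulfide isomerase, came closest, at -0.46 ± 0.12 (limma, adjusted p = 0.0698). PDIA3, the disulfide isomerase that works with calnexin and calreticulin, gave -0.33 and PDIA6 gave -0.18. The BiP co-chaperones DNAJC3 and DNAJB9 gave -0.075 and -0.046. P4HB, the classical protein disulfide isomerase, gave 0.024, and HYOU1, the nucleotide exchange factor of BiP, gave 0.14. So the direction was negative in 13 of 15 genes of this class while the size ran from close to 0 to a 2-fold fall. The class median was -0.33.

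**Figure D2:**
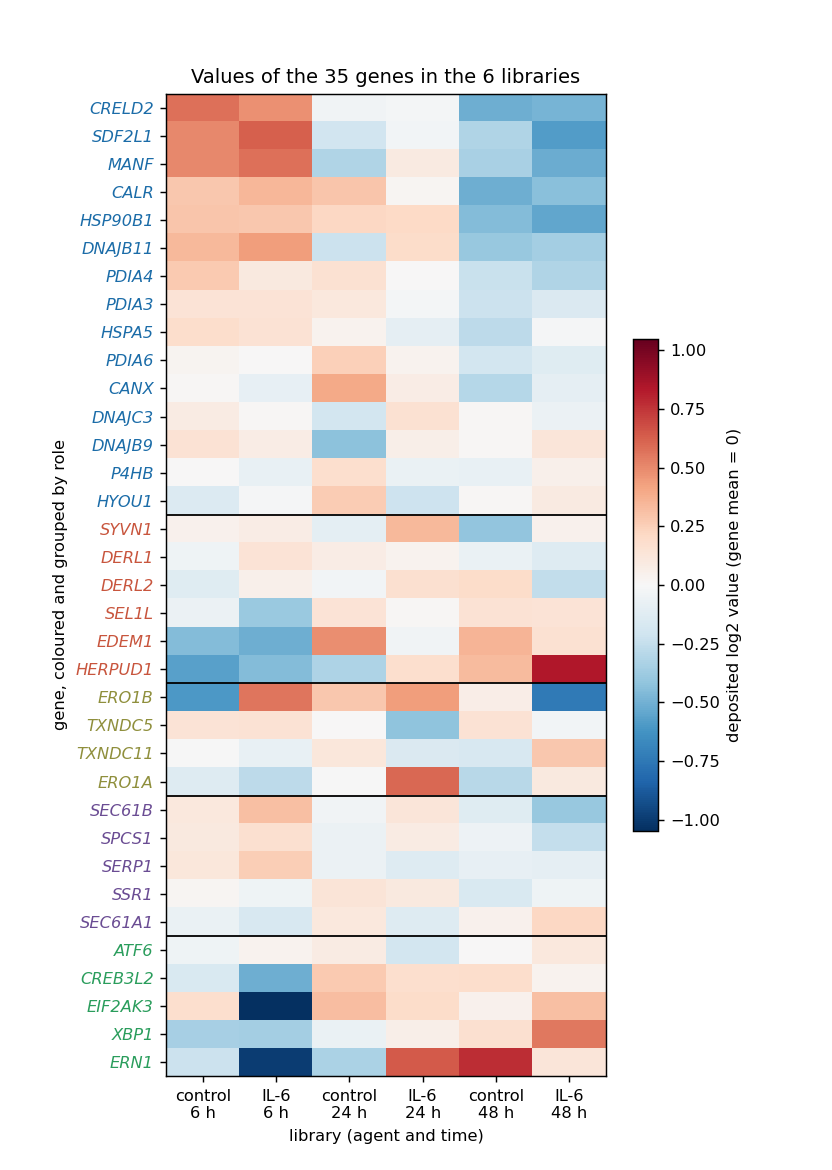
Deposited log2 value of each of the 35 genes (rows, grouped and coloured by role, ordered within a role by the difference of 48 h from 6 h) in the 6 libraries (columns), on a colour scale centred at each gene's mean. Both 6 h columns are red and both 48 h columns blue for the 6 chaperone genes at the top, while HERPUD1, EDEM1 and XBP1 run the other way.

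Degradation genes went differently. HERPUD1, a membrane protein that gathers the degradation complex, stood at -0.57, -0.32 and 0.33 in control cultures at 6, 24 and 48 h. With IL-6 it stood at -0.46, 0.17 and 0.84. It was lowest at 6 h and highest at 48 h in both, and rose by 1.10 ± 0.14 on the log2 scale from 6 to 48 h (limma, adjusted p = 0.00427). EDEM1, a lectin that directs misfolded glycoproteins to degradation, had control values of -0.46, 0.49 and 0.36. Its IL-6 values were -0.51, -0.038 and 0.16. The 6 h libraries were again the lowest, but the control culture had its high value already at 24 h. EDEM1 rose by 0.74 ± 0.16 from 6 to 48 h (limma, adjusted p = 0.0302), and the 24 h difference of 0.71 ± 0.16 did not pass the threshold (limma, adjusted p = 0.051).

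None of the other 4 degradation genes was called. SEL1L, the adaptor of the ubiquitin ligase, gave 0.37 at 48 h against 6 h, and SYVN1, the ligase itself (HRD1), gave -0.24. The channel-forming derlins DERL1 and DERL2 gave -0.15 and 0.0045. The class median was 0.19, with 4 of 6 differences positive. HERPUD1 and EDEM1 had the 2 largest, and the class mean, which their sizes enter, was 0.30.

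The contrast between both classes can be read library by library. The median value of the chaperones and folding enzymes minus the median of the degradation genes was 0.28, 0.087 and -0.44 in the control libraries of 6, 24 and 48 h. In the IL-6 libraries it was 0.31, -0.082 and -0.25. The 15 chaperones were thus above the 6 degradation genes in both 6 h libraries and below them in both 48 h libraries. Each gene is measured from its own mean. This order is limited to the genes chosen here. At 48 h against 6 h, 20 further ER folding genes had a median of 0.088 and 23 further degradation genes one of 0.0076. No p-value is given for these medians, which rest on genes of the same libraries.

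XBP1, the transcription factor gene, stood at -0.35, -0.073 and 0.17 in control cultures and at -0.36, 0.064 and 0.55 with IL-6. Its value was higher at each later time in both cultures, and it rose by 0.71 ± 0.14 from 6 to 48 h (limma, adjusted p = 0.0231). ATF6 stayed within a narrow band, with -0.047, 0.085 and 0.0032 in control cultures and 0.040, -0.19 and 0.11 with IL-6. The 48 h difference of ATF6 was 0.060 ± 0.16 (limma, adjusted p = 0.863).

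Both stress kinases were low by a level recovered from the values, in an arbitrary unit (5.31 for ERN1, 3.77 for EIF2AK3), and spread widely. ERN1 stood at -0.22, -0.33 and 0.78 in control cultures and at -0.99, 0.64 and 0.13 with IL-6. Its difference of 1.06 from 6 to 48 h carried an SE of 0.42 and was not called (limma, adjusted p = 0.183). EIF2AK3 stood at 0.18, 0.32 and 0.043 in control cultures and at -1.05, 0.19 and 0.31 with IL-6, so that a single library, IL-6 at 6 h, lay apart from the other 5. Its 48 h difference was 0.61 ± 0.41 (limma, adjusted p = 0.419). CREB3L2, a membrane-bound transcription factor related to ATF6, stood at -0.16, 0.27 and 0.18 in control cultures and at -0.51, 0.18 and 0.041 with IL-6. It gave 0.45 ± 0.25 (limma, adjusted p = 0.339). All 5 sensors and transcription factors had positive differences, with a median of 0.61, and XBP1 alone among them was called.

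Genes of translocation leaned lower. SEC61B, a subunit of the Sec61 channel through which new chains enter the ER, stood at 0.11, -0.033 and -0.12 in control cultures and at 0.31, 0.13 and -0.40 with IL-6. It was lower at each later time in both, and its 48 h difference was -0.47 ± 0.15 (limma, adjusted p = 0.103). SPCS1 of the signal peptidase gave -0.28, SERP1, which stabilises membrane proteins during stress, also gave -0.28, and SSR1 of the translocon-associated complex gave -0.090. SEC61A1, the pore subunit, gave 0.25. None of the 5 was called, and the class median was -0.28.

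Oxidative folding genes showed no common direction. ERO1A, an oxidase that recharges disulfide isomerases, stood at -0.14, -0.0050 and -0.29 in control cultures and at -0.27, 0.60 and 0.11 with IL-6. ERO1B, its paralog, stood at -0.60, 0.28 and 0.068 in control cultures and at 0.56, 0.44 and -0.74 with IL-6, so it was higher at 48 h than at 6 h without IL-6 and lower with it. Over both cultures the 48 h difference was 0.11 for ERO1A and -0.31 for ERO1B, and for the thioredoxin-domain genes TXNDC5 and TXNDC11 it was -0.086 and 0.099. The class median was 0.0064 and none of the 4 was called.

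**Figure D3:**
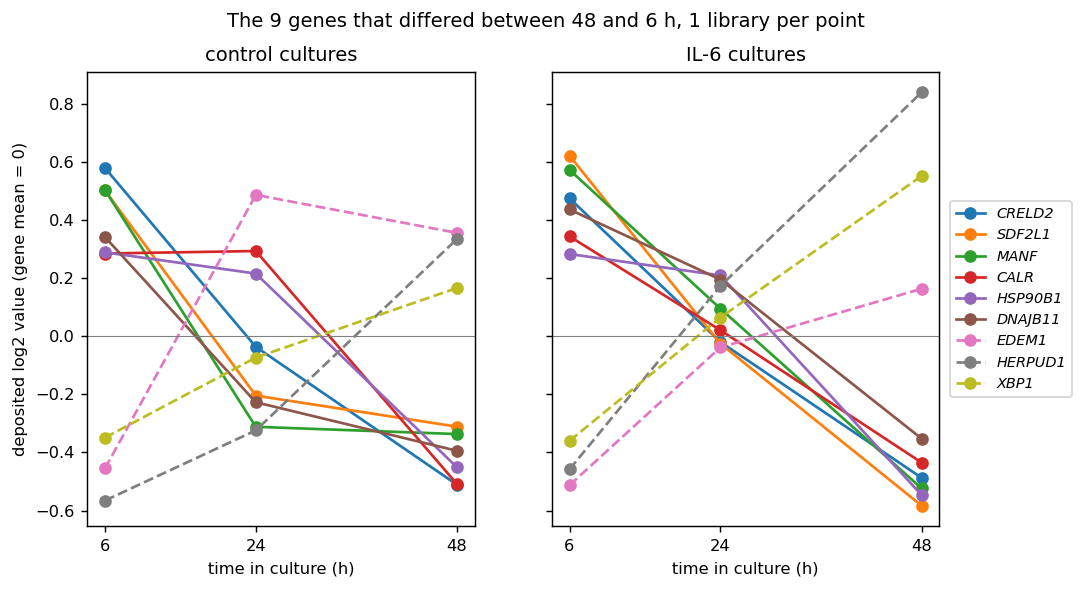
Deposited log2 value (vertical axis) against time in culture (6, 24 and 48 h) for the 9 genes called at 48 h against 6 h, with control cultures on the left and IL-6 cultures on the right, 1 library per point; solid lines are chaperones and folding enzymes and dashed lines HERPUD1, EDEM1 and XBP1. The solid lines end below 0 and the dashed lines above it in both panels.

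The change from 6 to 48 h could be read in each culture by itself, with no test because each ratio compares 1 library with 1 library. Each of the 6 chaperones that fell was lower at 48 h in both cultures: CRELD2 by -1.09 without and -0.96 with IL-6, MANF by -0.84 and -1.10, SDF2L1 by -0.81 and -1.20, CALR by -0.79 and -0.78, HSP90B1 by -0.74 and -0.83, and DNAJB11 by -0.74 and -0.79. HERPUD1 was higher by 0.90 without and 1.30 with IL-6, EDEM1 by 0.81 and 0.68, and XBP1 by 0.52 and 0.91. For 27 of the 35 genes both ratios had the same sign, 18 lower and 9 higher. The 8 others were P4HB, DNAJB9, DERL2, EIF2AK3 and the 4 oxidative folding genes. Both 48 h libraries lay below both 6 h libraries for 17 of the 35 genes (21.5% of all genes tested), and for 12 of the 15 chaperones and folding enzymes. Both lay above for 8 of the 35 genes (31.5% of all genes tested).

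**Figure D4:**
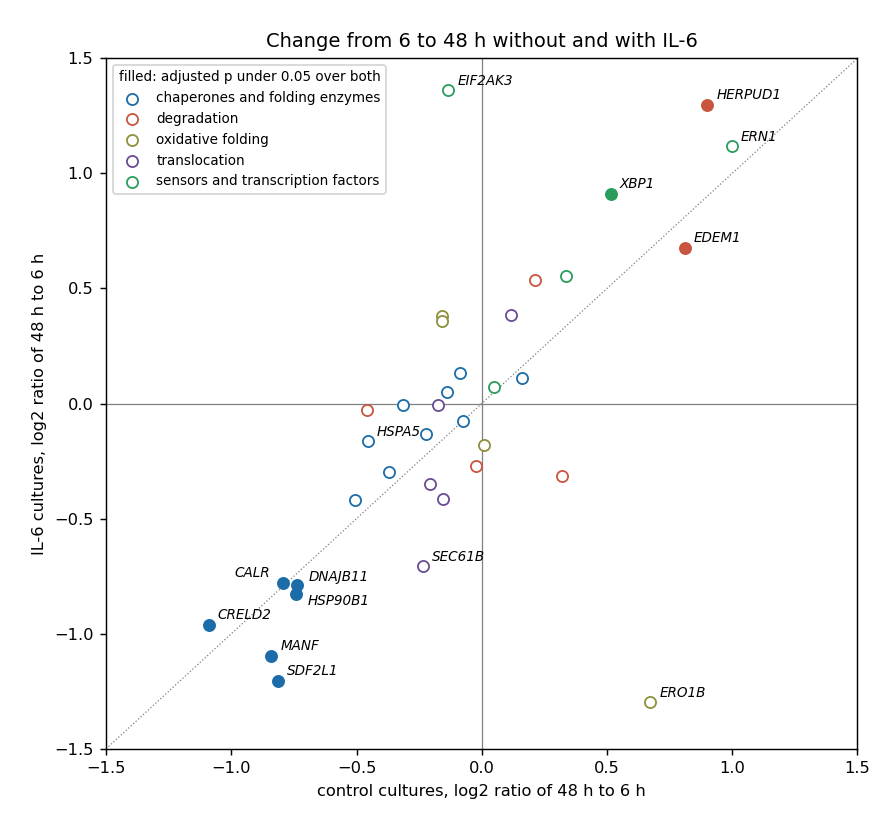
Log2 ratio of 48 h to 6 h in control cultures (horizontal) and IL-6 cultures (vertical) for the 35 genes, coloured by role; filled points were called over both cultures and the dotted line marks equal ratios. The 6 called chaperones lie at the lower left and HERPUD1, EDEM1 and XBP1 at the upper right, with EIF2AK3 and ERO1B far from the line.

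The direction of each of the 9 calls held with library medians set equal and with any library of 6 or 48 h left out. The filter, the variance trend, the shrinkage and a left-out 24 h library do not enter these estimates, so they could not change a direction. A pseudocount moved only the estimate of EDEM1, which stayed positive. The calls themselves did not all hold: without a variance trend on expression level none of the 9 passed (limma, 10 of the 35 genes at an unadjusted p under 0.05). That trend used a level recovered from the values, in an arbitrary unit. Among the 9 called genes only EDEM1 had one (56.0), which was not reliable. The others were given an assumed level of 100, so the calls rest on that choice. With the IL-6 library of 6 h left out 4 passed (MANF, HERPUD1, CRELD2 and SDF2L1), and with the IL-6 library of 48 h left out 5 passed (HERPUD1, HSP90B1, CRELD2, CALR and SDF2L1). CRELD2, SDF2L1 and HERPUD1 were called whichever library was left out. The call of SDF2L1 at 24 h held in 2 and that of HSP90B1 between 24 and 48 h in 3 of 6 such fits.

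By the promoter search, 12 of the 32 genes held an ERSE or ERSE-II match. At 48 h against 6 h, 4 of these 12 fell (CALR, CRELD2, HSP90B1 and SDF2L1), 2 rose (HERPUD1 and XBP1) and 6 were not called, and their median difference was -0.29. Of the 20 genes without a match, 2 fell (DNAJB11 and MANF), 1 rose (EDEM1) and 17 were not called, with a median of 0.014. The match thus went with no single direction, and the absence of these letters from the window says nothing about elements elsewhere.

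On GRCh38, as deposited, CRELD2 lies at chr22:49918167-49927540, SDF2L1 at chr22:21642302-21644299 and XBP1 at chr22:28794555-28800597. MANF lies at chr3:51385291-51389397, DNAJB11 at chr3:186567403-186585800 and EDEM1 at chr3:5187646-5219958. CALR lies at chr19:12938578-12944489, HSP90B1 at chr12:103930107-103953931 and HERPUD1 at chr16:56932142-56944864. The library kits do not mark strand, so reads of a gene and of one that overlaps it on the other strand cannot be told apart, and 19 of the 35 genes, including 5 of the 9 called ones, overlap such a gene with values in all 6 libraries. Of the genes that overlap a called one and were tested, C12orf73 (13169 bases shared with HSP90B1) gave -0.51 at 48 h against 6 h (limma, adjusted p = 0.239). TBCCD1 (3141 bases shared with DNAJB11) gave -0.00040, ALG12 (272 bases shared with CRELD2) gave 0.32, and a long noncoding RNA that shares 370 bases with CALR gave -1.21 (limma, adjusted p = 0.068). The part of these overlaps in the results was not tested.

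IL-6 against control over the 3 time-matched pairs gave no call among the 35 genes (limma; 1 gene at an unadjusted p under 0.05), while 38 of all genes tested were called (0.281%). The estimates ran from -0.36 for EIF2AK3 to 0.37 for HERPUD1, with 17 positive and 18 negative, and their median was -0.021 beside -0.034 for all genes. HERPUD1 was the gene at an unadjusted p under 0.05: it was higher with IL-6 at each time, by 0.11, 0.50 and 0.50 at 6, 24 and 48 h, and its estimate was 0.37 ± 0.12 (limma, adjusted p = 0.359). Next to it stood SYVN1, at 0.31 ± 0.18, and ERO1A, at 0.29 ± 0.17 (limma, adjusted p = 0.668 and 0.671). On the negative side EIF2AK3 at -0.36 ± 0.33 was followed by EDEM1 at -0.26 ± 0.13 (limma, adjusted p = 0.818 and 0.587).

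For the main chaperones the estimated IL-6 effect was close to 0. HSPA5 gave 0.034 ± 0.12, HSP90B1 -0.036 ± 0.10, CALR -0.047 ± 0.11 and CRELD2 -0.021 ± 0.10. XBP1 gave 0.17 ± 0.11, ATF6 -0.028 ± 0.13 and ERN1 -0.15 ± 0.34. The SE exceeded the estimate for each of these chaperones and for ATF6 and ERN1, and for EIF2AK3 it nearly equalled it. For the chaperones the SEs are small beside the differences that CRELD2 or CALR showed over time. Those of ERN1 and EIF2AK3 were larger. By role, the median IL-6 effect was -0.024 for chaperones and folding enzymes, 0.00060 for degradation, 0.10 for oxidative folding, 0.0059 for translocation and -0.15 for sensors and transcription factors. With library medians set equal the first of these became 0.013, so no direction can be read from it.

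At single time points 2 libraries are compared and no test is possible. At 6 h, 3 of the 35 genes differed by 1.5-fold or more between IL-6 and control (17.0% of all genes): ERO1B was higher by 1.16 on the log2 scale, and EIF2AK3 and ERN1 were lower, at -1.22 and -0.77. At 24 h there were 2 (20.8% of all genes), ERN1 at 0.97 and ERO1A at 0.61. At 48 h there were also 2 (17.9% of all genes), ERN1 at -0.65 and ERO1B at -0.81. None of the 15 chaperones and folding enzymes and none of the 6 degradation genes reached 1.5-fold at any time. The shares among the 35 genes were below those of all genes at each time, in a comparison that was not matched for expression level.

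ERN1 and ERO1B, which made up 5 of those 7 differences, changed sign between times. Together with EIF2AK3 they are low genes: their recovered levels, in an arbitrary unit, averaged 5.31 for ERN1, 6.07 for ERO1B and 3.77 for EIF2AK3, where the minimum for a test was 1. A model with separate early and late effects of IL-6 had 1 residual degree of freedom. It compared the effect at 6 h with the average of the later 2 time points. No gene of the 35 passed, where 0.229% of all genes tested did, so the count of 0 says little about these genes. ERO1B had the largest such difference, 1.48 ± 0.57 (limma, adjusted p = 0.907), and was alone at an unadjusted p under 0.05.

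**Figure D5:**
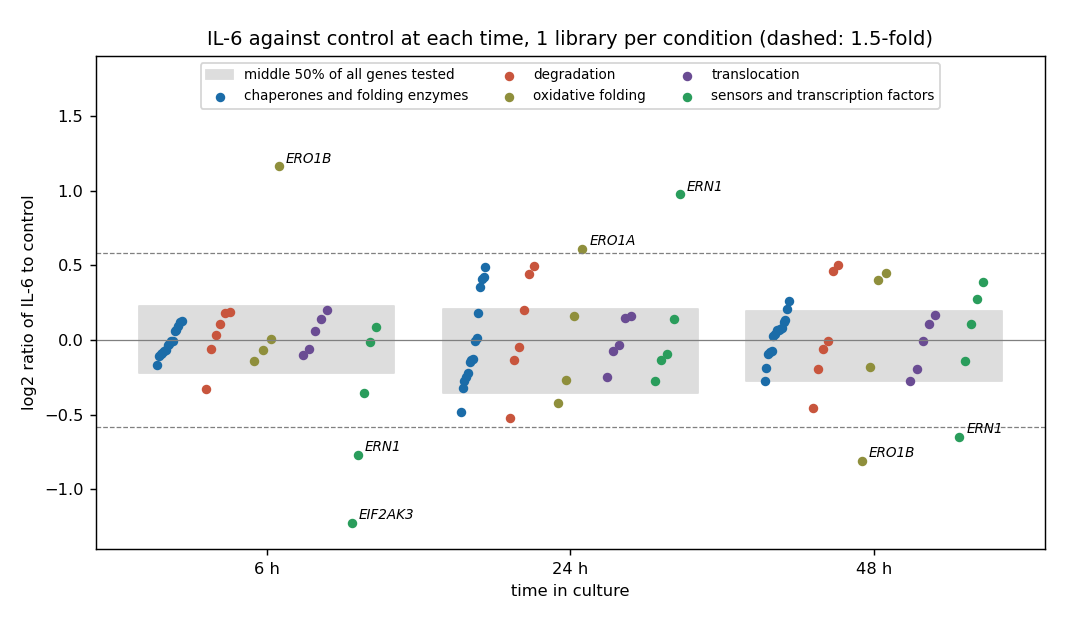
Log2 ratio of IL-6 to control for the 35 genes at 6, 24 and 48 h, 1 point per gene coloured by role; grey boxes span the middle 50% of all genes tested and dashed lines mark 1.5-fold. Only ERO1B, ERN1, EIF2AK3 and ERO1A pass the dashed lines, and at 6 h all 15 chaperones and folding enzymes lie between -0.17 and 0.13.

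Other genes of the same pathways were examined by lists. Of all genes tested, 2.54% were called higher and 1.48% lower at 48 h against 6 h. Single calls in a list are therefore given as genes and not as a trait of the list. Of 20 further ER folding genes, 1 was called higher and 1 lower at 48 h against 6 h, with a median of 0.088. PRKCSH, the beta subunit of glucosidase II, rose by 0.73 ± 0.16 (limma, adjusted p = 0.0356), and PRDX4, an ER peroxiredoxin, fell by 0.67 ± 0.14 (limma, adjusted p = 0.0332). The median of this list lay close to that of all genes tested. Of 23 further degradation genes, 1 was called higher and none lower, with a median of 0.0076: UBE2J1, a membrane-bound ubiquitin-conjugating enzyme, rose by 0.56 ± 0.13 (limma, adjusted p = 0.0441). Among 20 further translocation genes the median was -0.15 and 1 was called lower, SEC11C, a catalytic subunit of the signal peptidase, which fell by 0.85 ± 0.16 (limma, adjusted p = 0.0226). None of 16 tested genes of ER glycosylation was called (limma; 3 at an unadjusted p under 0.05), and their median was -0.013.

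A list of further stress transducers and targets of the PERK arm gave the most calls. Of its 16 tested genes, out of 20 listed, 4 were called higher at 48 h than at 6 h and none lower. The shares of all genes tested were 2.54% and 1.48%. In this list 14 differences were positive, and the median was 0.38. ATF4, the transcription factor whose translation PERK favours, stood at -0.75, -0.27 and 0.46 in control cultures and at -0.53, 0.27 and 0.82 with IL-6, and rose by 1.28 ± 0.13 (limma, adjusted p = 0.00196). CHAC1, a glutathione-degrading enzyme and known ATF4 target, stood at -2.00, -0.999 and 1.03 in control cultures and at -1.09, 0.93 and 2.12 with IL-6. It rose by 3.12 ± 0.24 from 6 to 48 h (limma, adjusted p = 0.000452). TRIB3, a pseudokinase and known ATF4 target, rose by 1.41 ± 0.19, and BBC3, a pro-apoptotic gene of the BCL2 family, by 1.65 ± 0.37 (limma, adjusted p = 0.00573 and 0.0374).

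CHAC1 was also the only gene of the 5 lists called for IL-6, at 1.31 ± 0.20 (limma, adjusted p = 0.0267), and it was higher with IL-6 at each of the 3 times. At 24 h against 6 h, ATF4 (0.64 ± 0.13) and CHAC1 (1.51 ± 0.24) were called (limma, adjusted p = 0.0422 and 0.0142). Between 24 and 48 h CHAC1 was called (1.61 ± 0.24, limma, adjusted p = 0.0217). Of all genes tested, 0.281% were called for IL-6, 1.64% higher at 24 h against 6 h and 0.104% higher between 24 and 48 h. So over culture time the rise of XBP1, HERPUD1 and EDEM1 stood beside a rise of ATF4 and CHAC1, while 6 ER chaperones fell in the same libraries. The part of ATF4 in these differences was not tested.

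As facts of the whole series, a value was listed for 22000 to 23108 genes per library. The median gene differed by 0.11 between 24 h and 6 h, by 0.071 between 48 h and 6 h and by -0.030 between 48 h and 24 h. Read against the shift of 0.071, the falls of chaperones from 6 to 48 h are slightly larger and the rises slightly smaller. Between 24 and 48 h the reverse holds. There the fall of HSP90B1 was -0.67 with library medians set equal, in place of -0.71, and was not called (limma, adjusted p = 0.0571). All 10 monocytic markers were valued in the 6 libraries, whereas 0 of 4 T cell markers and 0 of 5 erythroid and platelet markers were. The depth in reads is unknown, because the tables hold no counts.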

How the data were processed

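The 6 libraries of THP-1 cells (human; 1 per agent and time) were grouped by the labels. Per the labels' protocols, SMART-seq v4 amplification of RNA was followed by Nextera XT library preparation and Illumina sequencing. Neither kit marks strand. The authors deposited 1 value per gene on a log2 scale, titled a processed signal per the file headers and centred on each gene. The build was GRCh38 (hg38) per the submitters' processing notes. Which aligner, counter and normalization were used is not given in the sources used here. The 35 genes, the role classes, the pathway and marker lists and the tests were chosen with earlier results of these data known.

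A level in an arbitrary unit was recovered from the rounding of the values (step 0.001) for 90.3% of genes with 6 values. Genes without one were treated as high. It served to filter genes (mean level of at least 1), to set the variance trend and, in alternatives, to add a pseudocount of 1 or 0.1. The limma 3.58.1 model in R 4.3.3 held time and agent over all 6 libraries, with robust empirical Bayes (2 residual and a median of 8.11 prior degrees of freedom) in place of the count test that the plan foresaw for counts. It was tested on simulated data. P-values were adjusted by Benjamini-Hochberg at 0.05. The interaction model held agent by early or late time. All 35 genes are accounted for. Values in every library are printed for genes past a threshold, for genes at least 1.5-fold apart in any comparison, and for HSPA5, HSP90B1, XBP1, ATF6, ERN1, EIF2AK3, HERPUD1 and EDEM1. Of the pathway lists, up to 5 called genes per list and contrast are named. Promoters came from RefSeq. Protein sequences were not used here.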

Additional observations from a re-analysis of the deposited data

How the results depend on the processing

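Control and IL-6 libraries were paired by time, which is a term of the model, and the labels give no replicate numbers for any other pairing; without the time term the IL-6 count was also 0. The count of 0 genes for IL-6 held in every alternative run, with 0 to 2 genes at an unadjusted p under 0.05 (limma). For 48 h against 6 h (9 genes), the count was 0 without the variance trend, where 10 genes had an unadjusted p under 0.05, and 4 to 10 when 1 library was left out, which was chosen after seeing the data. Other settings gave 8 to 10. For 24 h against 6 h (1 gene), it was 0 with no filter on level, 4 at a mean level of at least 5, 0 without the trend, 0 with non-robust shrinkage, 2 with library medians set equal, 3 on log2(level + 1), 2 on log2(level + 0.1) and 0 to 4 with 1 library left out. For 48 h against 24 h (1 gene), it was 0 with no filter, 2 at a mean level of at least 5, 0 without the trend, 0 with non-robust shrinkage, 0 with medians set equal and 0 to 2 with 1 library left out. Wherever such a count was 0, 4 to 10 genes had an unadjusted p under 0.05. At 2-fold in place of 1.5-fold, 0 genes were apart at 24 h and 0 at 48 h. The mean in place of the median was -0.45 for the chaperones and 0.30 for the degradation genes at 48 h against 6 h, and with medians set equal the degradation median was 0.13. Fits without 1 library assume that the lone sample of its time varies like the others. No called difference changed sign, but only equal medians, a pseudocount for genes with a recovered level, and some left-out libraries could move the estimates. The median IL-6 effect of the chaperones, -0.024, was 0.013 with library medians set equal and 0.0019 as a mean, so its sign was not stable. The causes were not tested. Depth is unknown, and low genes such as ERN1, ERO1B and EIF2AK3 had SEs about 3 times those of the chaperones.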
